A study of Mus musculus with 12 samples.

Results

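Cells of mouse embryos that lacked the surface receptor Flk1 were compared by whether they carried Endoglin, with 3 arrays of the Eng+Flk1- fraction against 3 arrays of the Eng-Flk1- fraction. The arrays were taken by the fraction named in their labels, and they are 6 of the 12 arrays of the series. The other 6 arrays hold the Flk1 positive fractions Eng-Flk1+ and Eng+Flk1+, 3 each, and serve here as a reference. All 4 fractions came from 1 pool of about 300 whole CD-1 embryos of 25 litters at embryonic day 7.5, stained for both proteins and separated by flow sorting. No gene was altered and no agent was given, so every difference is one between sorted cells. Each sample held 3000 cells. Its messenger RNA was converted to cDNA, amplified by a global PCR method called SuperAmp, labelled with Cy3 and put on an Agilent whole-genome array of its own, read in 1 colour. Because the 3 samples of a fraction came from the same pool, p-values here reflect how sorted samples varied, which may be technical, rather than how litters varied. In sorted bulk samples, fewer cells of a type and less RNA per cell cannot be told apart.

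Endoglin is a co-receptor of the TGF-beta and BMP family of signals, and Flk1 (gene Kdr) is a receptor for the vascular growth factor VEGF. At this stage Flk1 marks mesoderm that gives rise to blood, vessels and heart. Cells without Flk1 include the epiblast and early neural ectoderm, the visceral endoderm that wraps the embryo and feeds it, the extraembryonic ectoderm of the trophoblast lineage, and mesoderm without Flk1. The extraembryonic ectoderm is known for making BMP4 and BMP8b, the signals that induce germ cells and the allantois in the neighbouring epiblast. Elf5 and Esrrb are transcription factors that keep trophoblast stem cells in their state, and Apoa4 is an apolipoprotein of the visceral endoderm.

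The probes through which Bmp4 and Apoa4 were read are shown because these genes stand for the opposite sides of the comparison. Each is a 60-mer of the array, written 5′ to 3′. The Bmp4 probe lies on the minus strand at chr14:45306004-45306063 of mouse build mm8, and the Apoa4 probe spans chr9:45992573-45993316 on the plus strand, a stretch of 744 bases that is longer than the probe itself.
Bmp4 probe: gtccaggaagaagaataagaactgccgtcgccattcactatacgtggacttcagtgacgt
Apoa4 probe: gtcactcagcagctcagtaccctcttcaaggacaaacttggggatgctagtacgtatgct

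Levels are given as log2 signal relative to the 75th percentile of the same array, so that 1 unit is a change by a factor of 2 and 0 is a bright signal. A difference is the mean of Eng+Flk1- minus the mean of Eng-Flk1- with its standard error (SE) from the model. A gene was called changed at a Benjamini-Hochberg adjusted p under 0.05 from limma, fitted to all 12 arrays and adjusted over all 22722 genes tested. Of these, 332 genes were called, which is 1.46% of those tested. In Eng+Flk1- cells 281 genes (1.24%) were higher and 51 (0.224%) were lower. The arrays of both fractions did not overlap in any of the 332. Genes that were not called, such as Eomes, also had no overlap, and their share over all genes was not counted. The lack of overlap therefore adds nothing to a call. With arrays scaled to their medians instead, 144 of 234 called genes (61.5%) were higher against 84.6% here, and the median difference of all genes moved from -0.06 to -0.63.

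The 2 compared fractions shared no slide: the Eng-Flk1- arrays lay on slide 1 beside 1 Eng-Flk1+ array, and the Eng+Flk1- arrays on slide 3 beside 1 Eng+Flk1+ array. With slide as a fixed term, which links the fractions only through the Flk1 positive arrays, 0 genes were called by limma, 1007 genes had an unadjusted p under 0.05 against 3267 without it, and 331 of the 332 called genes kept their sign. The 332 were selected by their differences on these same arrays, so kept signs add no support to the calls. The share of all genes that kept their sign was not counted. Among called genes named below, the slide term moved the difference by over 1.5 times upward in Esrrb (to 9.18), Tbx3 (7.18), Ndufa3 (8.47), Mrpl41 (8.18) and Lamtor1 (9.68). It moved it as far towards 0 in Mrpl48 (1.84), Mfsd14b (4.52), Tent4b (-1.90) and Eraf (-1.57). The same held for S1pr1, Elf3, Sox11 and 4 visceral endoderm genes, all described with their values. Among uncalled genes named below, the sign of the difference turned in the sorting marker Eng (to -0.04), Hbb-bh1 (0.24), Ptprc (0.68), Hoxc8 (-1.21) and Alas2 (0.99). No value within 1 slide can be had for this comparison. The Eng-Flk1- arrays also stood apart in quality. They had 73.8%, 76.3% and 66.6% of spots well above background, against 80.2% to 83.3% on the other 9 arrays, and the Eng-Flk1+ array on the same slide had 83.3%. Their median gene SD was 1.01 against 0.563 in Eng+Flk1-. Of all genes tested, 330 were well above background on every Eng+Flk1- array and on no Eng-Flk1- array, and 16 the other way round. The part of signal quality in the calls was not tested.

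**Figure D1:**
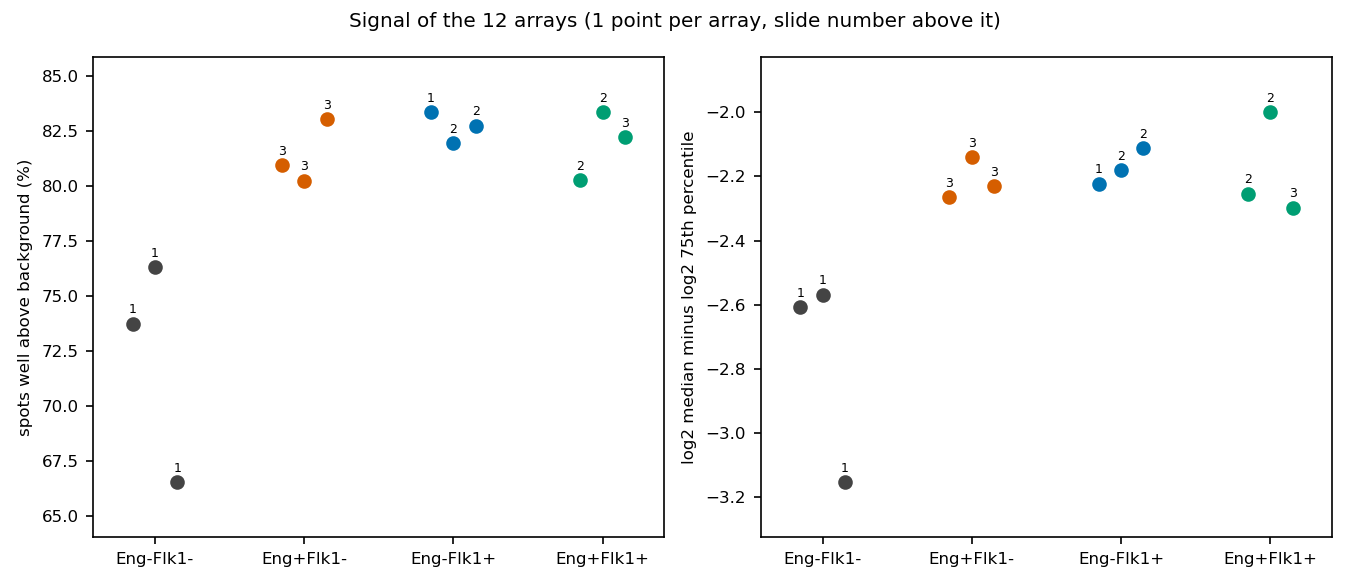
Share of spots well above background in percent (left) and log2 median minus log2 75th percentile of the signal (right) for each of the 12 arrays, by sorted fraction, with the slide number above each point. The 3 Eng-Flk1- arrays lie lowest in both panels, and the Eng-Flk1+ array that shares slide 1 with them lies among the other arrays.

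The sorting markers were examined first. Eng was at 0.13, -1.47 and -0.13 on the Eng-Flk1- arrays and at 0.75, 0.84 and -0.16 on the Eng+Flk1- arrays. These ranges overlapped, and the difference of 0.97 ± 0.69 (SE) was not called (adjusted p = 0.55). Cells were sorted on the protein, which the arrays do not measure. Kdr was at -6.20 ± 1.56 (SD, n = 3) in Eng-Flk1- and -5.38 ± 1.87 (SD, n = 3) in Eng+Flk1-, well above background on 1 and 2 of 3 arrays. On the Eng-Flk1+ arrays it read 0.90, 0.47 and 1.96, far above both Flk1 negative fractions.

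Genes of the trophoblast lineage were higher in Eng+Flk1- cells. Of 22 list members tested, 4 were called higher and 0 lower, against 1.24% and 0.224% of all genes. The median difference of the list was 1.56 against -0.06 over all genes. The called members were Elf5, Esrrb, Bmp8b and Rhox9. Elf5 and Esrrb were themselves chosen markers of the comparison, and Bmp8b passed the filter only through Eng+Flk1-. The count of 4 is therefore not independent of how genes were chosen and filtered. A difference above 0 was found in 20 of the 22 members and in 10820 of all 22722 genes. Scaling to the median lowered the list's median to 0.99 and all genes' to -0.63, and with slide as a fixed term it was 1.46.

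Elf5 was at -2.68, -2.73 and -1.93 on the Eng-Flk1- arrays and at 0.34, 0.81 and 1.64 on the Eng+Flk1- arrays. Every Eng+Flk1- array was above every Eng-Flk1- array, and Elf5 rose by 3.38 ± 0.47 (SE, adjusted p = 0.0080). In the Flk1 positive fractions Elf5 was low as well, at -3.61 ± 0.30 (SD, n = 3) in Eng-Flk1+ and -3.23 ± 0.50 (SD, n = 3) in Eng+Flk1+. Against the mean of these fractions the Eng+Flk1- level of Elf5 was higher by 4.35 (adjusted p = 0.0027), a contrast in which 70 genes (0.308%) were called and which was chosen after the values were seen.

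Esrrb was at -4.01, -2.90 and -2.96 without Endoglin and at 2.95, 1.88 and 1.89 with it. Again the groups did not overlap, with a difference of 5.53 ± 0.95 (SE, adjusted p = 0.021). A second Esrrb probe, equally above background throughout, differed by only 0.24, so the rise was seen by 1 of 2 probes. Bmp8b, a BMP ligand of the extraembryonic ectoderm, was at -1.74, -1.54 and -1.82 in Eng+Flk1-, each well above background, and no Eng-Flk1- array measured it above background. Taking the dimmest probe well above background on each array as the floor, Bmp8b was at least 14.6-fold higher in Eng+Flk1- (adjusted p = 0.0087). It was well above background on 1 Eng-Flk1+ array and on no Eng+Flk1+ array. Bmp8b thus entered the test through Eng+Flk1- alone, where it was high, so its call is not independent of the filter. Rhox9, a homeobox gene of the placental Rhox cluster, read -1.76, -0.93 and -2.07 against 0.81, 0.55 and 1.72. It rose by 2.61 ± 0.48 (SE, adjusted p = 0.027), but under median scaling its adjusted p was 0.070.

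Other trophoblast genes had large differences that did not pass the test. Hand1, needed for trophoblast giant cells and also expressed in extraembryonic mesoderm, was at -1.43, -6.73 and -7.13 against 1.26, 0.29 and 1.64 (difference 6.16 ± 1.39 SE, adjusted p = 0.063). Rhox5 overlapped between the fractions, with 2.36, 0.11 and 4.28 against 4.17, 5.02 and 5.48 (adjusted p = 0.22). Eomes, a T-box gene of trophoblast and primitive streak, differed by 2.205 ± 0.72 (SE, adjusted p = 0.19), and Tfap2c by 2.86 ± 0.85 (SE, adjusted p = 0.15). Hand1 and Rhox5 were chosen for mention after their values were seen.

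Among genes of the allantois and extraembryonic mesoderm, 3 of 19 tested were called higher, against 1.24% of all genes, and 0 lower. The list median was 2.00 against -0.06 over all genes. The called members were Bmp4, Foxf1 and Tbx20, of which Bmp4 was itself a chosen marker of the comparison. With slide as a fixed term the median was 2.41, and under normexp background correction it was 0.37. This list and the trophoblast list share Hand1.

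Bmp4 was at -3.72, -1.44 and -3.24 on the Eng-Flk1- arrays and at 3.02, 3.50 and 3.68 on the Eng+Flk1- arrays. The lowest Eng+Flk1- array lay above the highest Eng-Flk1- array, and Bmp4 rose by 6.20 ± 0.62 (SE, adjusted p = 0.0015). Each of the 6 readings was well above background. The Eng-Flk1+ array on the slide of the Eng-Flk1- arrays read 2.68, and the Eng+Flk1+ array on the slide of the Eng+Flk1- arrays read 1.498. Unlike Elf5, Bmp4 was thus high in 3 of the 4 fractions: Eng-Flk1- lay 4.86 below the mean of the Flk1 positive fractions (adjusted p = 0.0011, in a contrast with 731 genes called, 3.22%), while Eng+Flk1- lay 1.34 above it (adjusted p = 0.68).

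Foxf1, a forkhead factor of extraembryonic and lateral mesoderm, was at -3.98, -4.27 and -4.80 against 0.71, 0.87 and 0.47. The groups did not overlap and the difference was 5.04 ± 0.75 (SE, adjusted p = 0.010). Tbx20, a T-box factor of the cardiac and extraembryonic mesoderm, was at -4.04, -3.42 and -5.40 against 0.72, 0.18 and -1.52. It rose by 4.08 ± 0.72 (SE, adjusted p = 0.023), and the other 3 Tbx20 probes had differences of 1.62, 3.61 and 4.41. Foxf1 and Tbx20 also stood below the Flk1 positive mean in Eng-Flk1-, by 4.18 (adjusted p = 0.0066) and 3.39 (adjusted p = 0.015). Tbx4, a marker of the allantois, was at -3.98 ± 1.02 (SD, n = 3) and -1.50 ± 0.53 (SD, n = 3) and was not called (adjusted p = 0.28).

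**Figure D2:**
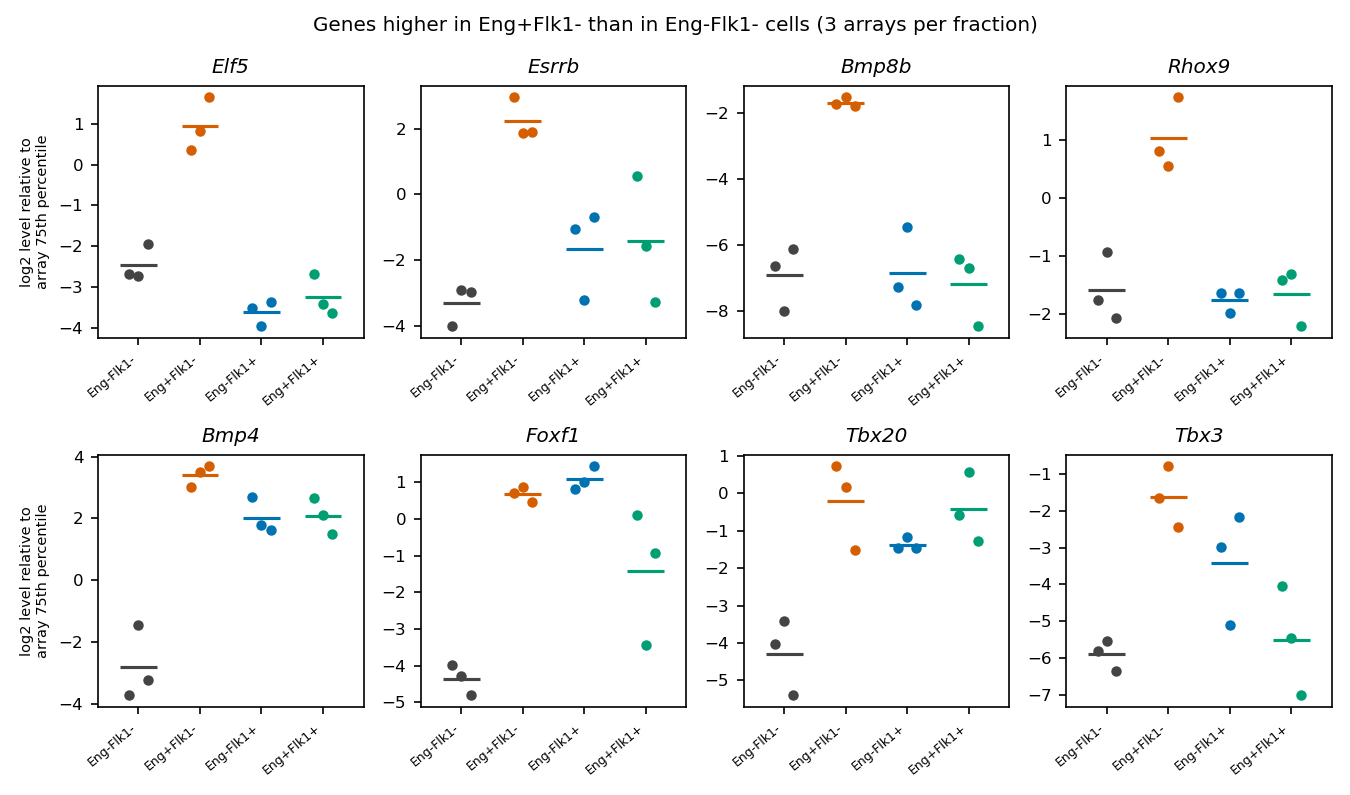
Log2 level relative to the array's 75th percentile of 8 genes called higher in Eng+Flk1- than in Eng-Flk1- cells, with 1 point per array, a line at the mean and 3 arrays per fraction. In the upper row Elf5, Bmp8b and Rhox9 are high in Eng+Flk1- and low in the other 3 fractions, and Bmp4 in the lower row is low in Eng-Flk1- alone.

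Further members of the BMP pathway were examined as ligands and antagonists, receptors, and targets. Of 16 ligands and antagonists tested, Bmp4 and Bmp8b were called higher and Cer1, a secreted antagonist of BMP, Nodal and Wnt signals, was called lower. The list's median difference was -0.34. Of all genes 1.24% were called higher and 0.224% lower, which also stands beside the receptor and target counts below. Of 11 receptors of the TGF-beta family, Bmpr1a, a type I BMP receptor, was called higher, from -2.93, -1.14 and -3.50 to 1.19, 1.47 and 0.96. The difference was 3.73 ± 0.69 (SE, adjusted p = 0.028) for this probe and 0.06 for a second, dimmer probe of Bmpr1a, and over the mean of both probes the adjusted p was 0.36. Among 14 BMP target genes the median difference was 1.15, and 1 gene was called. That gene was Tbx3, a T-box repressor, at -5.81, -5.53 and -6.37 against -1.64, -0.79 and -2.44 (difference 4.28 ± 0.88 SE, adjusted p = 0.045), well above background on 1 of 3 Eng-Flk1- arrays.

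Genes of the visceral endoderm were lower in Eng+Flk1- cells. Of 26 members tested, 7 were called lower, against 0.224% of all genes, and 0 higher. The median difference was -1.83 against -0.06 over all genes. A difference above 0 was found in 4 members and in 10820 of all 22722 genes. The called members were the apolipoprotein genes Apoa4, Apoa1, Apoc2 and Apob, the carrier gene Ttr, the fibrinogen gene Fga and the uptake receptor gene Cubn. Apoa4 was itself a chosen marker of the comparison. The list's median was -2.39 under median scaling and -1.19 with slide as a fixed term. With only the 6 Flk1 negative arrays in the fit, or without any one of the Eng+Flk1- arrays, 1 member was called lower.

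Apoa4 was at 4.66, 3.76 and 6.36 on the Eng-Flk1- arrays and at 1.15, -0.42 and -0.51 on the Eng+Flk1- arrays. All Eng+Flk1- arrays were below all Eng-Flk1- arrays, and Apoa4 fell by 4.86 on the log2 scale (SE 0.75, adjusted p = 0.013). In the Flk1 positive fractions its level was close to that of Eng+Flk1-, at -0.30 ± 0.94 (SD, n = 3) and -0.21 ± 0.43 (SD, n = 3). The Eng-Flk1+ array on the slide of the Eng-Flk1- arrays read 0.78. With only the 6 Flk1 negative arrays in the limma fit, Apoa4 was not called (adjusted p = 0.075). Of the other chosen markers, Elf5 was not called there either, while Bmp4 and Esrrb were (adjusted p = 0.025 and 0.022).

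Apoc2, a cofactor of lipoprotein lipase, was at 6.68, 5.99 and 6.97 against 1.69, 2.37 and 2.99 (difference -4.20 ± 0.69 SE, adjusted p = 0.017). Apoa1, the main protein of high-density lipoprotein, was at 4.98, 3.48 and 6.07 against 0.18, 0.77 and -0.18 (difference -4.59 ± 0.92 SE, adjusted p = 0.040). Apob, the scaffold of low-density lipoprotein, was at 1.66, 1.36 and 4.54 against -2.14, -0.49 and -2.23, and its 4 probes had differences from -3.10 to -4.69. None of these 3 genes overlapped between the fractions. Ttr, the carrier of thyroid hormone and retinol-binding protein, fell by 3.26 (SE 0.52, adjusted p = 0.014).

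Cubn, the endocytic receptor through which visceral endoderm takes up vitamins and lipoproteins, was at 3.06, 2.56 and 3.55 against -4.46, -1.38 and -0.31. It fell by 5.11 (SE 1.08, adjusted p = 0.049), and no array of one fraction reached the other. With slide as a fixed term the differences were smaller for Apoc2 (-1.36), Apoa1 (-1.78), Cubn (-1.87) and Apoa4 (-2.62), but not for Apob (-4.36) and Ttr (-4.89). Fga had the smallest difference of the called members, -2.03 ± 0.42 (SE, adjusted p = 0.045). Lrp2, the partner receptor of Cubn in the list of lysosome and uptake genes, was at 1.53 ± 1.84 (SD, n = 3) against -1.41 ± 0.84 (SD, n = 3) and was not called (adjusted p = 0.15). Of the 18 uptake genes tested, Cubn was the only one called, against 0.224% of all genes called lower, with a list median of -0.97. Hnf4a, a transcription factor of visceral endoderm and liver, was at -0.25 ± 0.44 (SD, n = 3) against -0.78 ± 0.21 (SD, n = 3), a difference of -0.53 in its brightest probe that was not called (adjusted p = 0.58), and its other 2 probes, dimmer but above background throughout, differed by -3.14 and -2.42.

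The promoters of the visceral endoderm genes were searched because the called members moved together. Windows from RefSeq (build GRCm38.p6), reaching from 250 bases upstream to 50 downstream of the gene's start, were found for 18 of the 26 tested members, in 25 windows. Both strands of the 250 upstream bases of each window were searched, and the 50 downstream bases were not. GTTAAT, the core of an HNF1 site, was in 7 of the 25 windows (28%) and in 6.43% of all 32851 windows. It was also in 5 of 16 windows of allantois genes (31.3%), whose called members were higher, and in 1 of 19 trophoblast windows (5.26%). CAAAGTCC, of HNF4, was in 0 of the 25 windows against 1.20% of all, and its first 5 letters CAAAG, which overlap that motif, were in 56.0% against 48.6%. AGATAA, of GATA factors, was in 4.0% against 9.99%, and AAGGTCA, of ERR factors such as Esrrb, was in 4.0% against 4.08%. A match is a description of letters and not of binding. The 250 bases upstream of the start are shown for Apoc2 (chr7:19677942-19678191, minus strand) and Fga (chr3:83025903-83026152, plus strand), the called members whose windows held GTTAAT, with the motif in capitals.
Apoc2 promoter: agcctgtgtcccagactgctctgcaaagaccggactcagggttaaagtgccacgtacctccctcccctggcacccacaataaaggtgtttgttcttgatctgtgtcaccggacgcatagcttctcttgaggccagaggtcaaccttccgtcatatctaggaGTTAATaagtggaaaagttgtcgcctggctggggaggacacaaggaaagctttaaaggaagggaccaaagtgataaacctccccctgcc
Fga promoter: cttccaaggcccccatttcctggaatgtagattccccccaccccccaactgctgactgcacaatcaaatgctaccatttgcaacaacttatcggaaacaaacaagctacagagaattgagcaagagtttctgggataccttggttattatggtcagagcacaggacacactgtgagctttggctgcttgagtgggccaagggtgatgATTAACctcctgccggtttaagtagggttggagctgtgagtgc

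A few markers of the neural ectoderm and the anterior endoderm were called lower in Eng+Flk1- cells, while most members of both lists did not pass the test. Of 15 neuroectoderm genes tested, Otx2, Gbx2 and Sp8 were called lower and 0 higher, with a median of -0.56. Of 15 definitive endoderm and axial genes, Cer1 and Otx2 were called lower and 0 higher, with a median of -0.98. Over all genes 0.224% were called lower. With slide as a fixed term the neuroectoderm median was -0.01 and the endoderm median -0.57.

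Otx2, which specifies the anterior neural plate and anterior visceral endoderm, was at 1.26, 0.67 and 1.84 on the Eng-Flk1- arrays and well above background on no Eng+Flk1- array. It was at least 162-fold lower in Eng+Flk1- (adjusted p = 0.034). Otx2 was well above background on 2 Eng-Flk1+ arrays and 1 Eng+Flk1+ array, so it entered the test through Eng-Flk1- alone. Its call in each list that holds it is therefore not independent of the filter. Cer1 read -0.74, 1.52 and 4.55 without Endoglin, was well above background on no Eng+Flk1- array, and was at least 232-fold lower (adjusted p = 0.0043). Its level also differed between the Flk1 positive fractions, at -1.13 ± 1.05 (SD, n = 3) in Eng-Flk1+ and -8.03 ± 0.50 (SD, n = 3) in Eng+Flk1+. No array of either Endoglin positive fraction was well above background for Cer1, so these differences are limited by the floor and were not set against each other.

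Gbx2, a homeobox gene of the posterior epiblast and hindbrain, was at 2.79, 2.41 and 5.16 against 0.43, -0.57 and -1.32. The groups did not overlap (difference -3.94 ± 0.75 SE, adjusted p = 0.032), while a second Gbx2 probe was above background on no array of either fraction. Sp8, a zinc-finger factor of the neural plate, was at 2.09, 2.08 and 4.14 against -1.81, -6.82 and -4.66 (adjusted p = 0.036). Pou5f1, the pluripotency factor of the epiblast, was at 4.58, 4.30 and 5.88 against 1.83, 2.30 and 2.50. Its arrays did not overlap either, but the difference of -2.71 ± 0.58 (SE) missed the threshold (adjusted p = 0.052). Pou5f1 was chosen for mention after its values were seen. In the epiblast list of 18 genes tested 1 was called higher (Esrrb) and 1 lower (Otx2), both already described, with a median of -0.34. Cd24a, a surface glycoprotein of epithelia, was the only called gene among 20 epithelial genes, at 4.07, 4.09 and 5.003 against 1.87, 1.19 and 2.43 (difference -2.56 ± 0.44 SE, adjusted p = 0.021). The Eng-Flk1+ level of Cd24a was 4.20 ± 0.11 (SD, n = 3) and the Eng+Flk1+ level 1.64 ± 0.23 (SD, n = 3), and the interaction was -0.0026 ± 0.62 (SE, adjusted p = 1.00). Gja1, the gap junction protein connexin 43 and a member of the list for maternal decidua, was at 2.10, 2.01 and 3.72 against -0.09, -0.42 and 0.18 (difference -2.72 ± 0.53 SE, adjusted p = 0.036). It was the 1 called of 12 decidua genes tested. Of all genes 1.24% were called higher and 0.224% lower, which also stands beside the epiblast and epithelial counts above.

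**Figure D3:**
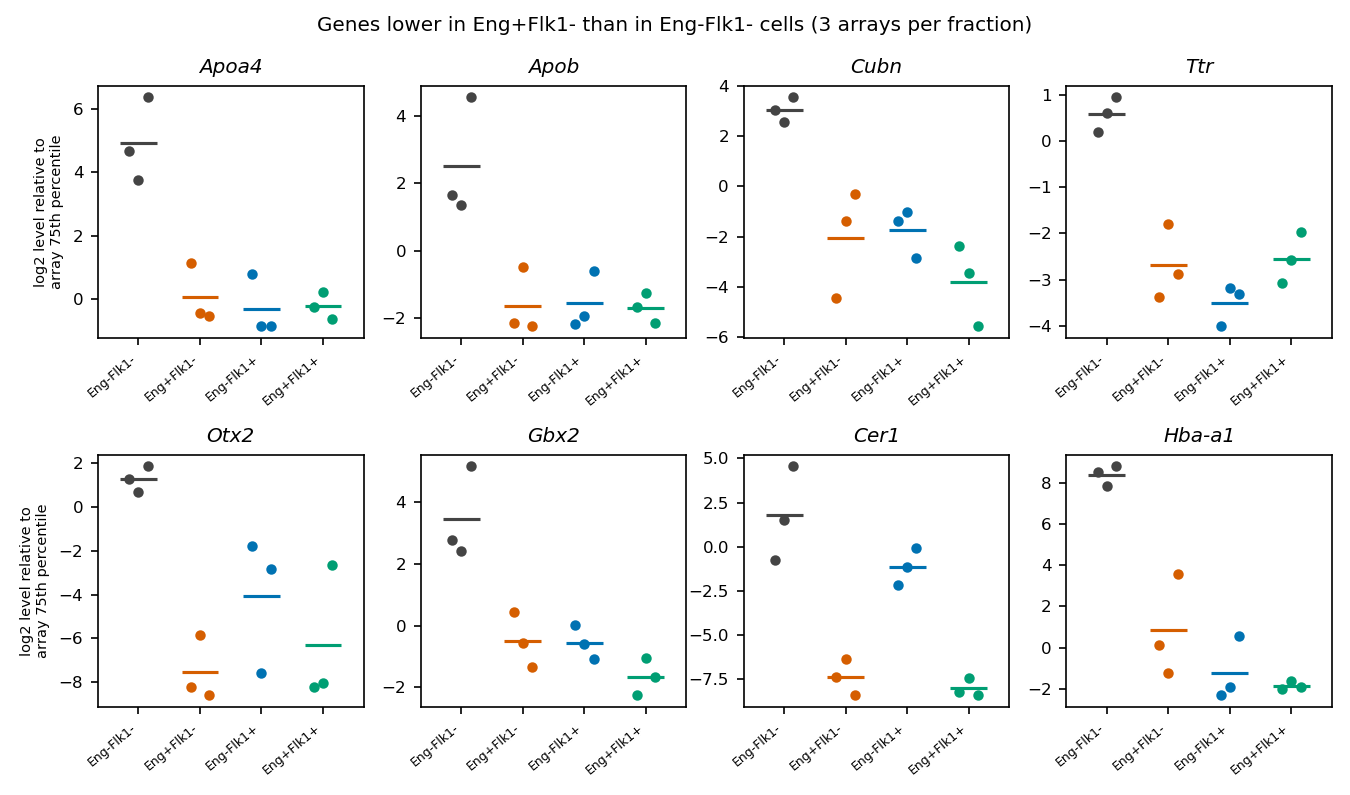
Log2 level relative to the array's 75th percentile of 8 genes called lower in Eng+Flk1- than in Eng-Flk1- cells, with 1 point per array, a line at the mean and 3 arrays per fraction. The visceral endoderm genes Apoa4, Apob, Cubn and Ttr are high in Eng-Flk1- and low in the other 3 fractions, and Cer1 is low in both Endoglin positive fractions.

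Taking the brightest probe of each gene, the largest fall above background throughout was that of an adult-type alpha globin. Hba-a1 was at 8.51, 7.85 and 8.79 on the Eng-Flk1- arrays and at 0.14, -1.22 and 3.57 on the Eng+Flk1- arrays (difference -7.55 ± 1.104 SE, adjusted p = 0.0094). Hba-a2, a near-identical copy whose signal the probes may not separate, fell by 6.48 (SE 0.79, adjusted p = 0.0042). These were the 2 called of 16 primitive erythroid genes tested, whose median was -0.94, or 0.17 with slide as a fixed term. Over all genes 0.224% were called lower.

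Other globin genes did not move alike. Hbb-bt, an adult-type beta globin outside the list, fell by 3.57 (SE 0.40, adjusted p = 0.0028), and its 3 other probes had differences from -6.06 to -10.8. Eraf, as the array names the alpha-hemoglobin stabilising protein gene, was at 0.90, 3.13 and 1.37 against -2.85, -3.53 and -1.50 and fell by 4.42 (SE 0.78, adjusted p = 0.023). The embryonic globin Hbb-bh1 was at 2.56, 4.05 and 4.86 against 2.57, 3.07 and 2.34, a difference of -1.17 ± 0.60 (SE) that was not called (adjusted p = 0.41). The embryonic alpha-like Hba-x was not called either (difference -2.30 ± 1.73 SE, adjusted p = 0.57). These 4 genes were chosen after their values were seen. Alas2, the erythroid enzyme of heme synthesis, differed by -0.0049 ± 1.21 (SE, adjusted p = 1.00), and of 18 regulators of blood formation 0 were called. The whole leukocyte list of 12 genes tested held 0 called genes, with Ptprc at -3.88 ± 0.35 (SD, n = 3) against -4.41 ± 0.03 (SD, n = 3). Whether blood of the mothers, whose cells carry adult globin, entered the samples was not tested.

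**Figure D4:**
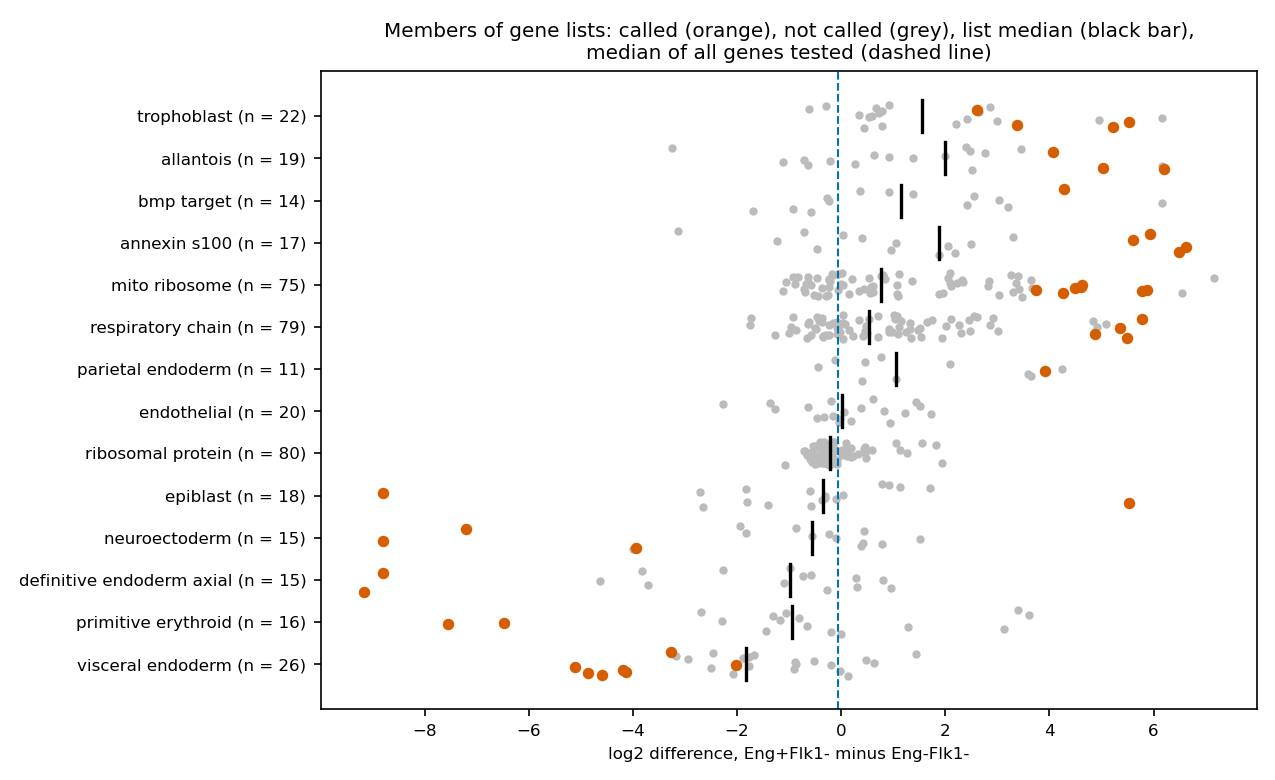
Log2 difference of Eng+Flk1- minus Eng-Flk1- for each tested member of 14 gene lists (points, orange where called at an adjusted p under 0.05), with the list median as a black bar and the median of all 22722 genes as a dashed line. The trophoblast, allantois and annexin and S100 medians lie at 1.56 to 2.00 and the visceral endoderm median at -1.83.

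Genes called higher were also found in lists of broader cellular function. Among 17 annexin and S100 calcium-binding genes tested, 4 were called higher and 0 lower, with a median of 1.88. Anxa5, which binds phosphatidylserine, was at -5.39, -5.66 and -4.01 against 2.16, 1.61 and 1.08, the largest rise of a gene above background throughout (difference 6.63 ± 0.72 SE, adjusted p = 0.0025). Anxa2 and its partner S100a10 rose by 6.50 ± 0.79 (SE, adjusted p = 0.0042) and 5.61 ± 0.73 (SE, adjusted p = 0.0055), and S100a6 by 5.93 ± 1.01 (SE, adjusted p = 0.020). The 4 of 17 stand against 1.24% of all genes called higher. Eng-Flk1- lay below the Flk1 positive mean by 5.50 for Anxa5, 5.81 for Anxa2, 5.08 for S100a10 and 3.58 for S100a6. Eng+Flk1- lay above that mean by 1.135, 0.68, 0.54 and 2.35, and none of these passed the test.

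Of 75 mitochondrial ribosome genes, 7 were called higher, against 1.24% of all genes, and 0 lower. Their median difference was 0.76 against -0.06 over all genes. Mrpl30 was at -3.98, -4.92 and -4.13 against 1.08, 0.98 and 2.53 and rose by 5.87 ± 0.65 (SE, adjusted p = 0.0026). The others were Mrpl3, Mrpl21, Mrpl33, Mrpl37, Mrpl41 and Mrpl48, with differences from 3.74 to 5.78. In Eng-Flk1- the 7 genes lay 3.01 to 5.27 below the Flk1 positive mean. In Eng+Flk1- they lay between -0.09 and 1.72 from it, and none of these passed the test. For Mrpl33 a second probe had a difference of -0.62, and for Mrpl3 the probes ranged from -1.05 to 5.78. Of 79 respiratory chain genes, the 4 called were Ndufv2 and Ndufa3 of complex I, Cox5a of complex IV and Atp5c1 of the ATP synthase. These genes lay 3.13 to 5.03 below the Flk1 positive mean in Eng-Flk1-. They lay 0.21 to 2.355 above it in Eng+Flk1-, where none passed the test. All 4 were higher, beside the same 1.24% of all genes, and the list median was 0.54. Median scaling took these list medians to 0.20 and -0.02, where all genes stood at -0.63. Ribosomal protein genes of the cytosol had a median of -0.22, and 0 of 80 were called.

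Further large rises concerned Dad1, a subunit of the complex that attaches sugars to proteins, and Polg, the polymerase of mitochondrial DNA. Dad1 was at -4.09, -3.60 and -3.26 against 2.13, 2.37 and 2.30 (difference 5.92 ± 0.40 SE, adjusted p = 2.6e-04). Polg was at -3.33, -3.21 and -3.91 against 1.75, 2.24 and 1.68 (difference 5.37 ± 0.40 SE, adjusted p = 3.3e-04). Eng-Flk1- lay 5.97 below the mean of the Flk1 positive fractions for Dad1 and 5.98 below it for Polg, while Eng+Flk1- lay 0.05 and 0.61 below it (adjusted p = 1.00 and 0.99). Psme2, the proteasome activator subunit, rose by 5.67 ± 1.06 (SE, adjusted p = 0.029). With Psmb5 it made 2 called of 47 proteasome genes, against 1.24% of all genes called higher. Both lay below the Flk1 positive mean in Eng-Flk1-, by 5.35 and 3.14, and above it in Eng+Flk1-, by 0.32 and 0.28. Tmem88, an inhibitor of Wnt signalling in cardiac precursors, rose by 5.54 ± 0.87 (SE, adjusted p = 0.014). Otub1, a deubiquitinase, rose by 6.33 ± 1.28 (SE, adjusted p = 0.042) in 1 probe, while a second probe of the same brightness differed by -0.74.

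Of the 281 genes called higher, 78 were well above background on no Eng-Flk1- array, so that only a lower bound of their fold can be given. The highest bounds were those of Mkks, at least 117-fold higher in Eng+Flk1-, and Ddb2, at least 102-fold higher. Mkks encodes a chaperonin-like protein of the cilium base and Ddb2 a sensor of damaged DNA. Txndc12, Tspan14, Lamtor1 and Mfsd14b were at least 70.9-fold, 61.5-fold, 47.1-fold and 40.5-fold higher. Tspan14 was the 1 called of 20 tetraspanin genes tested, against 1.24% of all genes called higher. A second Mkks probe differed by 0.98 and a second Lamtor1 probe by 0.51.

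Falls outside the lists included Npl, an enzyme of sialic acid breakdown, at 2.83, 2.61 and 1.91 against -5.90, -2.91 and -3.89 (difference -6.68 ± 0.84 SE, adjusted p = 0.0046). Crmp1, a protein of axon guidance, was at 1.40, 0.77 and 4.04 against -2.12, -3.27 and -4.58 (difference -5.39 ± 0.89 SE, adjusted p = 0.017). Unlike Apoa4, Crmp1 and Npl were also low in Eng+Flk1- beside the Flk1 positive mean, by -3.87 in both, which did not pass the test (adjusted p = 0.082 and 0.069). Pde3b, a phosphodiesterase, fell by 4.84 (SE 0.79, adjusted p = 0.017) and lay 4.08 below the Flk1 positive mean (adjusted p = 0.041), with a second, dimmer probe at a difference of 0.74. Rnf32, Clic6 and Lrmp fell by 5.80 (SE 1.11), 5.03 (SE 0.92) and 4.70 (SE 0.89). Tent4b fell by 4.82 (SE 0.86, adjusted p = 0.025) in its brighter probe and differed by 3.23 in the other. Among imprinted genes, Slc38a4, an amino acid transporter of the placenta, was the 1 called of 20 and rose by 2.39 ± 0.44 (SE, adjusted p = 0.029), with a second probe at 6.99. Lamc1, a laminin chain, was the 1 called of 11 parietal endoderm genes and of 22 basement membrane genes, with a rise of 3.92 ± 0.74 (SE, adjusted p = 0.031). Beside the 1 call in each of the imprinted, parietal endoderm and basement membrane lists, 1.24% of all genes were called higher.

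Whether Endoglin status went with other differences in Flk1 negative than in Flk1 positive cells was tested with the interaction, taken as Eng+Flk1- minus Eng-Flk1- less Eng+Flk1+ minus Eng-Flk1+. It was called for 62 genes (0.273% of those tested), 59 of them positive. It shares its Flk1 negative arrays with the comparison above. The lowest adjusted p was that of Dad1, whose interaction was 7.498 ± 0.57 (SE, adjusted p = 0.0016): it was higher with Endoglin in Flk1 negative cells and at 1.52 ± 0.42 (SD, n = 3) against 3.10 ± 0.32 (SD, n = 3) without it in Flk1 positive cells. Pnrc1, Wdr74, Med26, Tpst1 and Rbm19 followed, with interactions between 7.49 and 9.999. Tpst1, a tyrosine sulfotransferase, was at -0.77, -0.66 and -0.46 in Eng+Flk1- and at -3.55 ± 1.16 (SD, n = 3) in Eng-Flk1+, -6.64 ± 1.11 (SD, n = 3) in Eng+Flk1+, where 1 of 3 arrays was well above background, and well above background on no Eng-Flk1- array. Bmp4 and Foxf1 were among the 62, with 6.13 ± 0.88 (SE, adjusted p = 0.024) and 7.54 ± 1.06 (SE, adjusted p = 0.023). Elf5 and Apoa4 were not, at 2.99 ± 0.67 (SE, adjusted p = 0.12) and -4.94 ± 1.07 (SE, adjusted p = 0.11). Without the second Eng-Flk1- array the interaction was called for 311 genes and without the second Eng+Flk1- array for 24.

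Lists of mesoderm outside the allantois held few calls, beside 1.24% of all genes called higher and 0.224% lower. Of 20 endothelial genes tested 0 were called, with a median of 0.02, and Pecam1 was at -0.61 ± 1.87 (SD, n = 3) against -1.88 ± 0.36 (SD, n = 3). Of 20 primitive streak genes 0 were called, with a median of -0.31, and of 17 cardiac genes only Tbx20. Of 18 mesenchymal genes 0 were called; Twist1 was well above background on no Eng-Flk1- array and on all 3 Eng+Flk1- arrays, at -3.51, -4.33 and -2.16 (adjusted p = 0.059). Of 30 Hox genes 0 were called, with Hoxc8 at -5.98 ± 1.64 (SD, n = 3) against -0.97 ± 0.91 (SD, n = 3) (adjusted p = 0.089). The lists of germ cell, Wnt, FGF, cell cycle, glycolysis, early stress, apoptosis and metallothionein genes had 0 called genes in limma, and the nodal list had only Cer1. In the stress list Gadd45b had the lowest p, at -1.39 ± 1.03 (SD, n = 3) against 1.07 ± 0.57 (SD, n = 3) (adjusted p = 0.058).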

How the data were processed

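Per the labels' protocols, 3000 sorted cells per sample were lysed, their messenger RNA was amplified as cDNA by a global PCR method and 250 ng was labelled with Cy3. Per the file headers, the authors deposited spot intensity from Agilent Feature Extraction 10.5.1.1, background-subtracted and not scaled between arrays. Flags for spots well above background came with it. The authors' table of all samples holds intensity divided by the array median, judged from its values (each column has a median of 1.0), and was used as an alternative. The sources used here do not give its software settings. Unequal amplification in the global PCR can add to the spread between samples.

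Values were computed from the intensities: 1639 control spots and outlier flags were left out, log2 was taken relative to the array's 75th percentile, and replicate spots were averaged, which left 41174 probes of 27545 gene names (RefSeq names; a gene is its brightest probe). No spot was saturated. Tested genes (22722) had to be well above background on every array of at least 1 fraction, and 17585 of them were so on all 12. The number of arrays limits the precision. One model with 4 fractions was fitted with limma 3.58.1 (R 4.3.3; the data.table package was at 1.17.8) and tested on simulated data; figures used matplotlib 3.10.9. One SE per gene serves all fractions, so it may be too small for Eng-Flk1-. A lower bound of a fold was set against the dimmest probe well above background on each array.

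The text names the sorting markers, 4 chosen markers, the 12 largest rises and falls well above background on all 6 arrays, the 6 highest bounds each way (2 genes qualified for lower ones), the called members of 38 gene lists (else from the 4 with the lowest p) and 6 interaction genes; clone names were passed over, and other genes are said to be chosen after their values were seen, as were the uncalled lineage markers Tbx4, Lrp2, Hnf4a, Alas2 and Ptprc and the contrasts with the Flk1 positive mean. Members and lists were chosen with earlier results of these data known. Replicate numbers did not pair the samples: deviations of same-numbered samples correlated at 0.01, 0.04 and 0.0041. Beside the main settings, 27 alternatives were run.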

Additional observations from a re-analysis of the deposited data

Results flagged for a closer look

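In 19 genes named here, the difference between Endoglin positive and negative cells itself differed between Flk1 negative and Flk1 positive cells, by the interaction test in limma (adjusted p under 0.05 over all genes). It is positive where Endoglin went with a more positive log2 difference among Flk1 negative cells. In 7 of the 19 genes no Eng-Flk1- array was well above background, so those values rest in part on signal near background. The interactions were 9.999 for Tpst1, 9.18 for Ddb2, 8.57 for Rbm19, 8.09 for Mkks, 8.08 for Wdr74, 8.01 for Txndc12 and 7.99 for Pnrc1. They were 7.54 for Foxf1, 7.498 for Dad1, 7.49 for Med26, 6.97 for Ndufv2, 6.71 for Anxa2, 6.40 for Mrpl30 and 6.13 for Bmp4. Smaller positive values were 5.98 for F2r, 4.99 for Polg and 3.69 for Slc38a4. Negative ones were -7.40 for Npl and -3.58 for Hbb-bt. The Eng-Flk1- arrays, with the lowest share of spots well above background, enter every one of these values, and their part in them was not tested.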

How the results depend on the processing

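All called genes named in the text kept their sign under the alternatives in which they were tested, but their calls did not always hold. The genes were selected by their differences on the same arrays, so kept signs add no support to the calls. Scaling to array medians called 144 genes higher and 90 lower, the values in the authors' table gave 144 higher and 89 lower, and quantile normalization 162 higher. Their interaction counts were 32, 35 and 39. Under normexp background correction 147 genes were called (103 higher, interaction 38), among genes well above background on every array 168 (124 higher, interaction 21), and in the 6 Flk1 negative arrays alone 186 (175 higher, 11 lower). Array quality weights, which fell lowest on the Eng-Flk1- arrays, left 103 (91 higher, 12 lower). Slide as a random block gave 2825 (1790 higher, 1035 lower) at an estimated correlation below 0. Slide as a fixed term left 0 in total, higher, lower, in the interaction and in each list, with 1007 genes at an unadjusted p under 0.05. No value within a slide exists, so slide and fraction cannot be told apart beyond that fit. Causes of the other shifts were not tested.

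The replicate block called 238 genes (208 higher, 30 lower), 23 interactions and 4 visceral endoderm genes lower; the samples share only a number.

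Trophoblast members called higher were 2 in the 6 arrays alone and under quality weights, and 10 with the random slide block. Allantois members were 5 with the percentile taken over bright spots and 8 with the random slide block. Visceral endoderm members called lower were 3 with no filter on dim probes, 1 in the 6 arrays alone and 0 under quality weights.

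Leaving out 1 array at a time gave 143 to 846 called genes, 131 to 637 higher, 12 to 209 lower and 24 to 311 interactions. The highest counts came without replicate 2 of Eng-Flk1-, and without replicate 1 or replicate 3 of that fraction 510 and 417 were called. Without replicate 1, 2 or 3 of Eng+Flk1- 143, 158 and 146 were called, and without replicate 3 of Eng-Flk1+ 208. Trophoblast members ranged from 2 to 7, allantois members from 2 to 4 and visceral endoderm members from 1 to 8. Only 1 pool and 3 arrays per fraction limit what these differences can show, and genes near background have folds that depend on the floor.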

Other observations

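Several changed genes outside the lists encode receptors and regulators, all chosen after their values were seen. S1pr1, a receptor for sphingosine-1-phosphate, and F2r, the thrombin receptor, rose from below background in Eng-Flk1- cells to clear signal on every Eng+Flk1- array. S1pr1 was at least 28.3-fold and F2r at least 16.7-fold higher (limma adjusted p = 0.0026 and 3.3e-04). F2r read 0.67 ± 0.26 (SD, n = 3) in Eng-Flk1+ and 0.92 ± 0.68 (SD, n = 3) in Eng+Flk1+, above the Eng+Flk1- values of -1.22, -2.21 and -1.11. F2rl1, a protease-activated receptor of epithelia, was at -3.28, -2.49 and -3.46 in Eng+Flk1-, well above background on all 3 arrays, and on 1 of the 9 arrays of the other fractions, so that it entered the test through Eng+Flk1- alone. It was at least 5.62-fold higher than in Eng-Flk1- (adjusted p = 0.010).

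Dnmt3l, a cofactor of DNA methyltransferases, showed the pattern of Elf5. It was at -2.57, -3.52 and -2.22 in Eng-Flk1-, at 2.42, 1.39 and 1.34 in Eng+Flk1- (difference 4.49 ± 0.62 SE, adjusted p = 0.0069), at -2.33 ± 0.40 (SD, n = 3) in Eng-Flk1+ and at -2.80 ± 1.098 (SD, n = 3) in Eng+Flk1+. Eng+Flk1- lay 4.29 above the mean of the Flk1 positive fractions (adjusted p = 0.010). Elf3, an epithelial factor of the same family as Elf5, was at least 14.9-fold higher than in Eng-Flk1- (adjusted p = 0.047). Eng+Flk1- was the only fraction in which all 3 arrays read Elf3 well above background. Elf3 thus passed the filter by the fraction in which it was high, and its call is not independent of that filter. Of the 26 alternatives in which Elf3 was tested, 9 called it. Sox11, a factor of neural progenitors, and Meis1, a homeobox gene, fell by 2.34 (SE 0.44, adjusted p = 0.031) and 3.52 (SE 0.66, adjusted p = 0.030). The 6 Sox11 probes did not all move alike, with differences from -3.70 to 1.70. A second, dimmer Meis1 probe, above background throughout both fractions, differed by -0.80. Over the mean of both probes Meis1 was not called (limma adjusted p = 0.10). With slide as a fixed term the differences moved towards 0 for S1pr1 (3.81), Elf3 (3.55) and Sox11 (-1.53).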
